A study of Homo sapiens with 12 samples.

Results

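The sequence that borders the large centromere-side blocks of chromosomes 1, 2, 5, 9 and 16 was examined for its place in nucleolus-associated domains (NADs), parts of the chromosomes that are recovered together with nucleoli. Cells of H9, an established line of human embryonic stem cells, were kept untreated in RSeT medium (naive state) or in mTeSR medium (primed state). Each state gave 3 libraries of nucleolar DNA and 3 libraries of whole-cell DNA, 12 in 4 groups. The authors deposited 1 list of NAD regions for naive cells and 1 for primed cells, each tied by the labels to the 6 libraries of its state. A region has a chromosome, a start and an end on the hg38 assembly and no score, so read depth and the spread between cultures are unknown, and no p-value is given for any difference.

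A flank is the 5 Mb on either side of a block, called left on the side of lower coordinates and right on the side of higher ones. The blocks are 17.99 Mb of chromosome 1 (125190001 to 143180000), 0.99 Mb of chromosome 2 (90410001 to 91400000), 2.28 Mb of chromosome 5 (47310001 to 49590000), 14.99 Mb of chromosome 9 (45520001 to 60510000) and 8.09 Mb of chromosome 16 (38290001 to 46380000). The 10 flanks add up to 50 Mb. They were touched by 1006 of 61750 naive and 258 of 29994 primed regions, 1264 of 91744 in all, and 1001 and 251 of these lay wholly inside a flank. None of the blocks held a region of either list or an annotated gene, and each was the longest such stretch of its chromosome, so their edges follow the lists to some degree. The files hold no chromatin mark, and the sequence of the flanks and blocks was not examined beyond promoters, so the name heterochromatin rests on what is known of these places and was not tested.

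Pericentromeric heterochromatin is built on arrays of satellite repeats, is kept silent through most of the cell cycle and is often found at the rim of the nucleolus or at the nuclear envelope. The blocks beside the centromeres of chromosomes 1, 9 and 16 are among the largest of the human genome and are poorly assembled in hg38. The sequence next to them is rich in recent segmental duplications, in which families such as NBPF, SRGAP2, FOXD4L and SPATA31A have many near-identical copies. Short reads from such copies, and from satellite arrays, cannot always be placed, which bears on calls in the flanks.

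The promoters of genes nearest to the blocks show how varied this sequence is. Each line gives the 250 bases before the gene's start, from RefSeq on GRCh38.p14, with CG dinucleotides (their own reverse complement) in capitals, and 96.9% of the 15812 coding promoters examined hold at least 1. They were chosen as the innermost coding genes of 3 flanks for which the promoter table and the gene table give the same start, and H3-7 is shown because its promoter lay in 1 list only.
H3-7, a histone H3 gene, minus strand, chr1:143905978-143906227: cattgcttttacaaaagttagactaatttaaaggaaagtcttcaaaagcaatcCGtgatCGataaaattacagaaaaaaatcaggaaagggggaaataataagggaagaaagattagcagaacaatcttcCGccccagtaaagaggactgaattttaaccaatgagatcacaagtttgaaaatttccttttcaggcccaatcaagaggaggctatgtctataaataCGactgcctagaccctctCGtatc
SHCBP1, minus strand, chr16:46621380-46621629: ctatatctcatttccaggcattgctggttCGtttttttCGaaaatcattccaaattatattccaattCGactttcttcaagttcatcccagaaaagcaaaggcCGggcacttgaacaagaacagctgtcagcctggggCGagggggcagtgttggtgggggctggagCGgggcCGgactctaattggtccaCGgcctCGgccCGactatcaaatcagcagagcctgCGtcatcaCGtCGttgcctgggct
LOC124905368, plus strand, chr2:90359069-90359318: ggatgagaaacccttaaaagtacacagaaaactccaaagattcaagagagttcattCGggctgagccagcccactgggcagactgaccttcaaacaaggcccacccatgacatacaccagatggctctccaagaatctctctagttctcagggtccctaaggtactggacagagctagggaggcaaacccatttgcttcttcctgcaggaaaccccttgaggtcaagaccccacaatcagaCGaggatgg
The H3-7 promoter had 36.8% G and C with 5 CG and lay in a primed NAD alone, 0.722 Mb from the block. The SHCBP1 promoter had 52.4% with 13 CG and lay in NADs of both lists, as did that of LOC124905368, with 50.8% and 2 CG. The promoter of LOC124905938, the innermost coding gene across the chromosome 2 block (chr2:91444102-91444351, minus strand), was identical to that of LOC124905368 at 250 of 250 bases. Both lay in NADs of both lists, but reads from this sequence fit both sides of the block, so the calls of the pair are not independent. Of 157 promoters in the flanks, 8 (5.10%) had the same 250 bases as another coding promoter, against 1.61% of 4776 in the rest of the 5 chromosomes. The median promoter held 62.0% G and C and 16 CG in the flanks, against 62.8% and 18 in the rest.

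How much of the flanks lay in NADs was measured first. Primed NADs covered nearly all of most flanks, and naive NADs a little over 50% of them, both above the rest of the same chromosomes. Over all flanks, 55.8% of 5000 bins of 10 kb were in naive NADs, against 34.5% of 80685 bins in the rest of the 5 chromosomes. In primed NADs it was 90.6% of flank bins, against 35.5% of the rest. Over all 23 chromosomes analysed the background was 40.1% for naive and 45.5% for primed NADs.

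**Figure D1:**
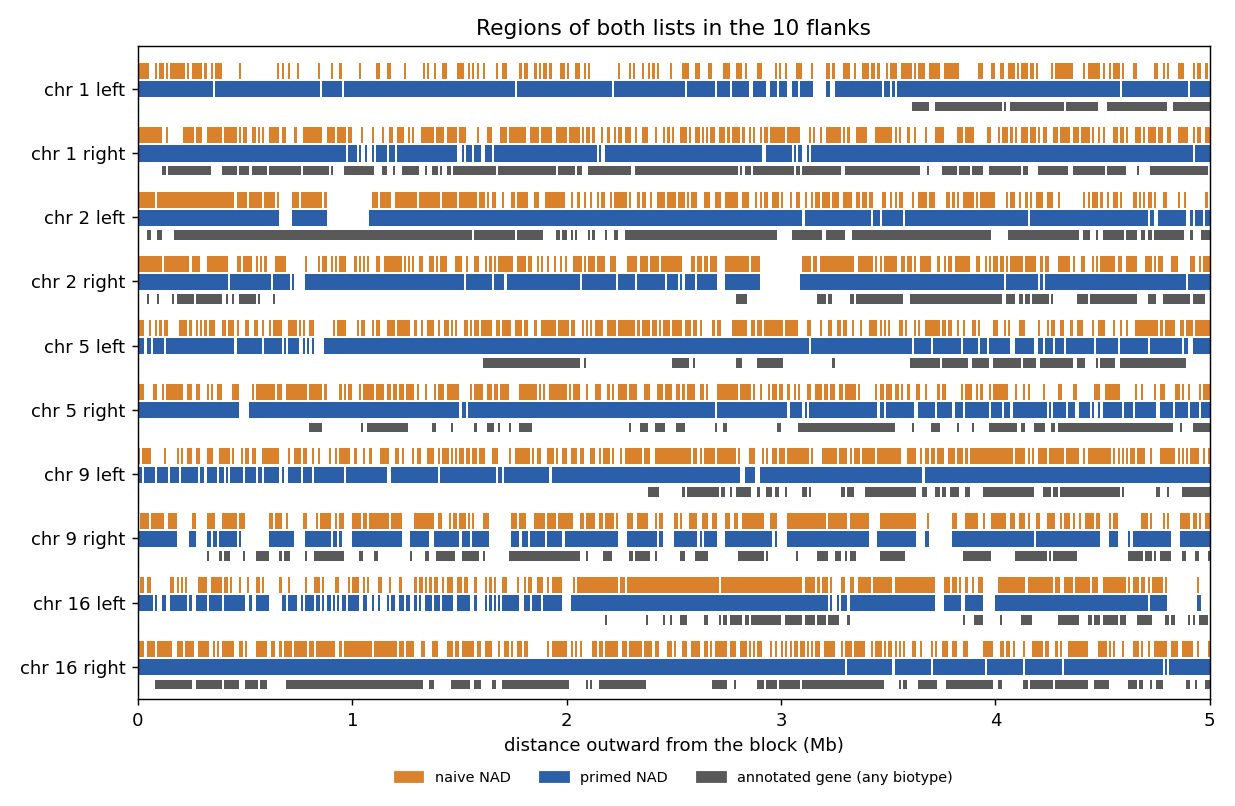
Regions of the naive list (upper bar of each flank), regions of the primed list (middle bar) and annotated genes of any biotype (lower bar) along the 10 flanks, plotted against distance outward from the block in Mb. Primed regions fill most of every flank, up to 98.4% of the chromosome 16 right flank, while naive regions are short and interrupted throughout, and the left flanks of chromosomes 1, 5, 9 and 16 hold no gene next to the block.

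In the naive list the shares of the flanks ran from 38.2% to 62.8%. The left and right flanks of chromosome 1 were at 38.2% and 57.4%, against 32.6% of the rest of that chromosome. Those of chromosome 2 were at 58.0% and 59.2%, against 31.8%, and those of chromosome 5 at 54.4% and 52.2%, against 33.2%. Chromosome 9 had 62.8% and 55.4% in its flanks, against 38.8%, and chromosome 16 had 61.2% and 59.0%, against 45.6%. The flank exceeded the rest in 10 of 10 cases, by a median of 20.1 percentage points, and the chromosome 1 left flank was nearest to its background, 5.62 points above it. This value was 0.0104 points with flanks of 2 Mb, 11.2 with flanks of 10 Mb and 14.3 without the stretch inside the innermost coding gene. With gaps of up to 50 kb filled, the chromosome 16 left flank was nearest instead, at 2.50 points, against 7.00 for the chromosome 1 left flank.

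In the primed list 8 flanks lay between 91.0% and 98.4%. The left and right flanks of chromosome 1 were at 94.2% and 94.6%, against 36.9% of the rest. Those of chromosome 2 were at 92.4% and 91.0%, against 25.8%, and those of chromosome 5 at 93.0% and 92.6%, against 25.9%. Chromosome 9 had 94.2% and 76.6% in its flanks, against 39.2%. On chromosome 16, where the rest of the chromosome was itself at 79.8%, the right flank reached 98.4% and the left flank 78.6%, slightly below the rest. The primed difference was positive in 9 of 10 flanks with a median of 57.5 points, was close to 67 points at most (67.1, chromosome 5 left) and was -1.23 points in the chromosome 16 left flank. This last value depended on the setting: it was -15.3 points with flanks of 2 Mb and 9.23 with flanks of 10 Mb. Against the rest on the same side of the block it was -13.9 points, and against the rest from 20 Mb outward 1.45.

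**Figure D2:**
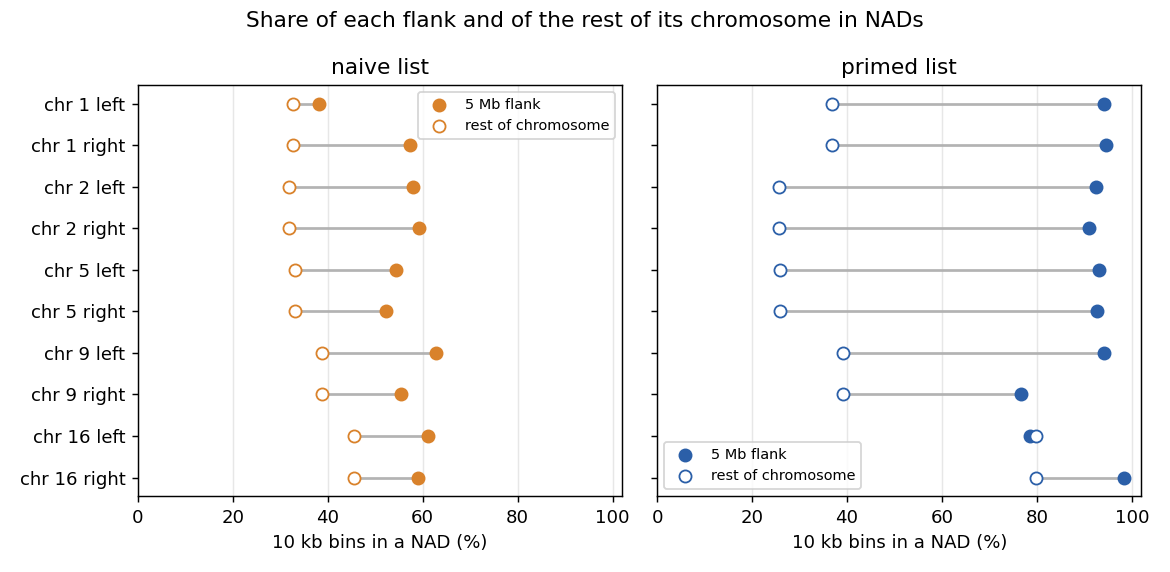
Percent of 10 kb bins in NADs in each 5 Mb flank (filled circles) and in the rest of the same chromosome (open circles), for the naive list on the left and the primed list on the right. All naive flanks lie right of their chromosome, and so do all primed flanks but the left flank of chromosome 16, at 78.6% against 79.8%.

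Each flank was also set among the windows of 5 Mb, in 1 Mb steps, of its own chromosome that shared nothing with a flank or block. These windows overlap each other, so the counts are a description. In the naive list 8 of the flanks exceeded every such window of their chromosome. The others were the chromosome 5 right flank, which 3 of 160 windows matched or exceeded, and the chromosome 1 left flank, which 42 of 211 did. In the primed list the flanks of chromosome 5, the left flank of chromosome 9 and the right flank of chromosome 16 exceeded every window. The chromosome 1 flanks were matched or exceeded by 10 and 9 of 211 windows and the chromosome 2 flanks by 4 of 222 each. Less high were the chromosome 9 right flank, with 11 of 104 windows at or above it, and the chromosome 16 left flank, with 39 of 63.

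The chromosome ends were measured in the same way. The outer 5 Mb at the ends of these chromosomes were 32.4% to 41.8% in naive NADs, below 9 of the 10 flanks, with the chromosome 1 left flank inside that range. In primed NADs the ends ran from 23% to 89.4%, against 76.6% to 98.4% in the flanks.

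The 2 lists were then set against each other. The naive share minus the primed share was negative in 10 of 10 flanks, with a median of -35.8 points, from -56.0 in the chromosome 1 left flank to -17.4 in the chromosome 16 left flank. When gaps of up to 50 kb between regions were filled, the median was -4.20 points, so most of the difference lay in short gaps of the naive list. Outside the flanks this difference was small on chromosomes 1, 2, 5 and 9, where it lay between -4.29 and 7.28 points, and large on chromosome 16, at -34.3 points. Naive NADs of the flanks lay almost wholly inside primed ones: 97.0% of their sequence was also primed, where 90.6% of all flank sequence was primed, against 42.4% of naive sequence in the rest. Naive-only bins made up 1.66% of flank sequence, against 19.9% of the rest, and primed-only bins 36.4%, against 20.9%.

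Primed NADs in the flanks were denser in naive NADs than primed NADs elsewhere on the same chromosomes. Naive NADs covered 59.8% of primed sequence in the flanks, against 41.2% of primed sequence in the rest. Taken by flank, this share ran from 39.5% in the chromosome 1 left flank to 75.1% in the chromosome 16 left flank. It exceeded the rest of the chromosome, which lay between 37.4% and 47.2%, in every flank but the chromosome 1 left one, where the rest was at 40%. Sequence in neither list came to 7.78% of the flanks, against 44.6% of the rest. Of these 389 bins, 201 (51.7%) lay in 2 flanks, the right flank of chromosome 9 and the left flank of chromosome 16. How far unplaceable reads contribute to these empty bins was not tested.

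The regions themselves differed in length. Naive regions that touched a flank had a median of 20 kb and a mean of 27.9 kb, against 10 kb and 16.7 kb in the rest of the 5 chromosomes. Of the naive flank regions, 32 (3.18%) were at least 100 kb long, against 22 regions (0.132%) in the rest, and the background over all naive regions was 0.722%. Primed flank regions had a median of 60 kb and a mean of 183 kb, against 10 kb and 31.9 kb. Of these, 93 (36.0%) were at least 100 kb long, against 477 (5.35%), with a background of 6.64%, and 8 were at least 1 Mb, against 14 in the rest. Gaps between regions were short in most flanks: the longest gap in the primed list was 60 kb or less in 6 flanks and 200 kb at most, in the chromosome 2 left flank.

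The longest primed region of the flanks covered 3.30 Mb of the chromosome 16 right flank, starting at the block itself (46380001 to 49680000). It held 18 coding genes, the innermost of them SHCBP1, which binds the SHC adaptor, the retromer subunit VPS35, the replication origin factor ORC6 and the kinase MYLK3, and naive NADs covered 63.0% of it. On chromosome 5 a primed region of 2.26 Mb (44180001 to 46440000) held the mitochondrial ribosomal gene MRPS30 and the growth factor FGF10 among its coding genes. Another on the right of that block (51130001 to 52280000, 1.15 Mb) held a single coding gene, ISL1, a homeodomain factor of heart and motor neuron development. The chromosome 2 left flank had 2.02 Mb (87310001 to 89330000) with 11 coding genes, among them RPIA, of the pentose phosphate pathway, EIF2AK3, a sensor of unfolded protein in the endoplasmic reticulum, and FOXI3. On the right of the chromosome 1 block 1.78 Mb (146320001 to 148100000) held 11, including PRKAB2, a subunit of the energy sensor AMPK, and the chromatin remodeller CHD1L.

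The longest naive regions were found in the left flanks of chromosomes 16 and 2. The first was 430 kb long (35580001 to 36010000 of chromosome 16), held no coding gene and lay inside a primed region of 1.2 Mb that was itself 93.3% naive. The other was 360 kb long (89960001 to 90320000 of chromosome 2, in the distal part of the immunoglobulin kappa locus). The longest naive region of every one of the 10 flanks was 100% covered by primed NADs.

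The next question was how far from the blocks the high shares reached. In steps of 1 Mb, the median primed share over the 10 flanks was 88.0% in the first Mb, 97.0% in the third and 94.0% in the fifth, just inside the limit of the flanks. It was 89.0% in the step just outside, so primed coverage did not end at that limit. It was 92.5% at 9 to 10 Mb, 54.0% at 14 to 15 Mb and 45% at 19 to 20 Mb. Without chromosome 16, the medians of the last 2 steps were 42.0% and 33.0%. The median naive share was 53.5% in the first Mb, 52.0% at 4 to 5 Mb, 53.0% at 5 to 6 Mb, 41.5% at 9 to 10 Mb and 40% at 19 to 20 Mb. The gap between the lists was thus widest at 8 to 9 Mb, with a median difference of -47.5 points, and was -1.50 points at 23 to 24 Mb.

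**Figure D3:**
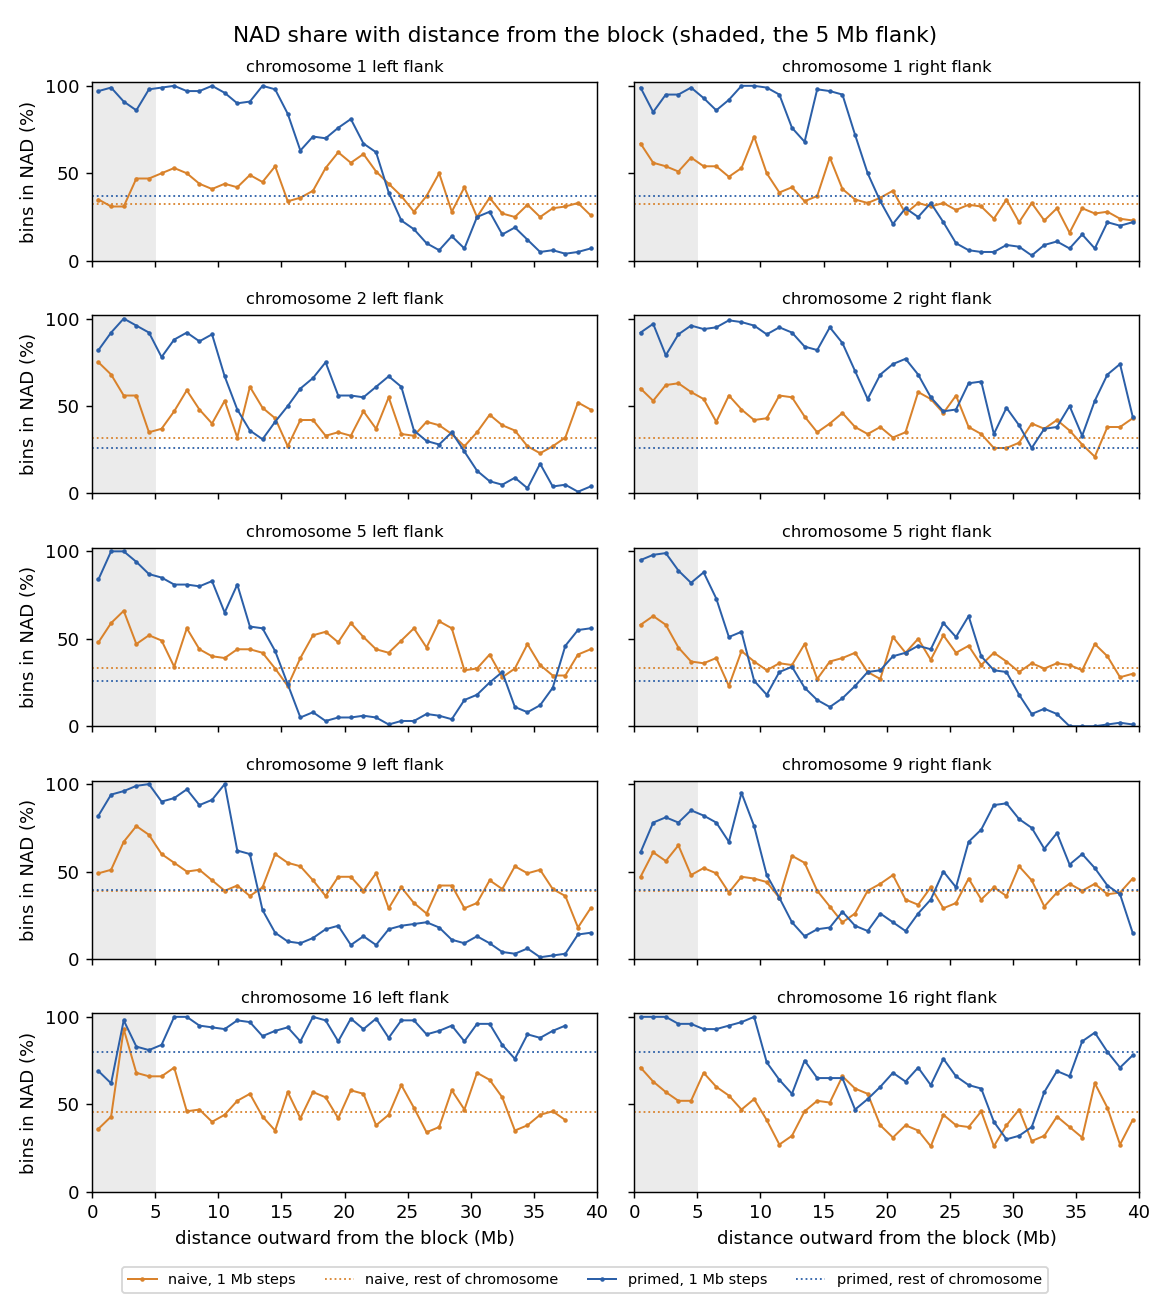
Percent of 10 kb bins in naive (orange) and primed (blue) NADs in steps of 1 Mb outward from each block, to 40 Mb or the last full step, with dotted lines at the share of the rest of the chromosome and shading over the 5 Mb flank. Primed shares of at least 50% run without a break for 9 to 24 steps in 9 flanks and through all 38 steps on the left of chromosome 16. The rest of chromosome 16 is itself at 79.8%, above that limit.

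Counted as consecutive steps with at least 50% in primed NADs, a limit chosen after the data had been seen, the primed stretch reached 24 Mb on the right of the chromosome 2 block and 23 Mb on the left of chromosome 1. It reached 19 Mb on the right of chromosome 1, 17 Mb on the right of chromosome 16, 14 Mb on the left of chromosome 5 and 13 Mb on the left of chromosome 9. On the left of chromosome 2, the right of chromosome 9 and the right of chromosome 5 it ended after 11, 10 and 9 Mb. The left side of chromosome 16 kept at least 50% through all 38 full steps. The rest of that chromosome was itself at 79.8% in primed NADs, so on both its sides this limit does not set the stretch apart from the background. On the left of chromosome 5 the primed share was 82.0% at 5 to 10 Mb and 9% at 15 to 20 Mb, while the naive share was 44.6% and 43.2%. On the left of chromosome 9 the corresponding primed values were 91.6% and 13.4% and the naive ones 52.2% and 47.2%. On these sides the primed list therefore passed below the naive one within 20 Mb of the block. It did so on other sides too. At 10 to 15 Mb, primed and naive values were 24.0% and 35.4% right of chromosome 5 and 26.8% and 46.4% right of chromosome 9. Left of chromosome 2 they were 44.6% and 47.6%, but 61.4% and 35.8% at 15 to 20 Mb. Elsewhere the primed value stayed above the naive one in each 5 Mb step to 20 Mb.

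Coverage of the stretch between the block and the innermost annotated gene of any kind differed between flanks. In 4 flanks this stretch was longer than 1 Mb and was covered less than the remainder of the flank. The first 3610 kb left of the chromosome 1 block were 34.3% naive, against 48.2% in the remainder of that flank, and 92.5% primed, against 98.6%. On the left of chromosome 9 the first 2380 kb were 51.7% naive, against 72.9%, and 89.9% primed, against 98.1%. On the left of chromosome 16 the first 2180 kb were 42.7% naive, against 75.5%, and 67.4% primed, against 87.2%, which is where that flank lost most of its primed share. On the left of chromosome 5 the first 1610 kb were 49.7% naive, against 56.6%, and 90.1% primed, against 94.4%. Of the 6 flanks with shorter stretches, the right flank of chromosome 9 had the same direction, with 50% of 320 kb naive, against 55.8%, and 65.6% primed, against 77.4%. The other 5 had the opposite direction in both lists. The longest of their stretches was 800 kb on the right of chromosome 5, which was 58.8% naive, against 51.0%, and 93.8% primed, against 92.4%. The remaining stretches were 40 to 110 kb long and were 87.5% to 100% naive and 100% primed. Each block ends where a region or a gene begins, so the first bin of such a stretch had to lie in a region. In stretches this short the high values are partly set by that choice of edge. Long gene-free sequence was not always covered less. Inside the chromosome 2 right flank, away from the block, a gene-free stretch of 2.15 Mb (92040001 to 94190000) was 55.3% naive and 90.7% primed. The whole of that flank was at 59.2% and 91.0%. Which of these gene-free stretches hold satellite arrays was not examined, and the part of read placement in their values was not tested.

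The pattern was also present beside the longest gene-free stretch of other chromosomes, a stand-in for the centromere chosen after the data had been seen. Over 13 other chromosomes that are not acrocentric, the 26 flanks of 5 Mb had a median of 60.2% in naive NADs (46.6% to 72.4%) and 95.9% in primed NADs (80.2% to 100%). Measured the same way, the 10 flanks on chromosomes 1, 2, 5, 9 and 16 had medians of 56.1% and 92.9%. These are not the flanks used above. On chromosome 2 the gene-free stretch (92040001 to 94190000) lies inside the right flank and does not hold the block. On chromosomes 1, 5, 9 and 16 it holds the block and extends beyond it. The difference from the rest of the chromosome had a median of 20.3 points in naive (6.40 to 36.2) and 54.9 points in primed NADs (-2.67 to 72.3) on the 13 chromosomes. On the 5 it was 21.7 (13.9 to 34.6) and 60.6 points (10.2 to 67.6). The primed difference was smallest on chromosome 19 (2.39 points on either side) and chromosome 20 (3.93 and -2.67 points). The rest of these chromosomes was itself at 97.6% and 95.9% in primed NADs. On the acrocentric chromosomes 13, 14, 15, 21 and 22 the left sides held no region. Those sides had only 41, 49, 379, 50 and 42 bins, in that order, where a full 5 Mb has 500. How much of this short-arm sequence can hold placed reads was not tested, so a lack of regions there is no measured absence. The right sides of chromosomes 14 and 22 had 319 and 276 bins, since empty stretches were left out. The right sides were 77.8%, 74.6%, 78.6%, 41.0% and 67.4% naive, in that order, with differences from the rest of 33.2, 22, 32.4, -32.2 and 14.6 points. They were 99.2%, 85.0%, 95.6%, 49.4% and 77.5% primed, with differences of 71.5, 10.7, 28.9, -48.8 and -15.0 points. The stretch of chromosome 21 ended at 5010000, on the short arm. High coverage beside the longest gene-free stretch was thus not limited to chromosomes with a large block.

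**Figure D4:**
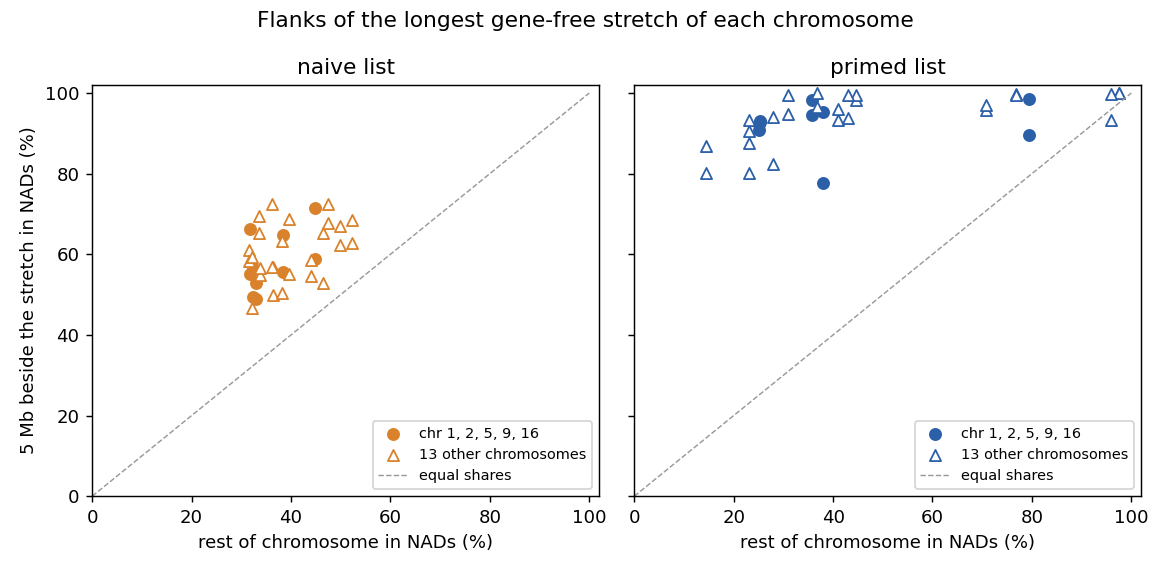
Percent in NADs of the 5 Mb on either side of the longest gene-free stretch of each chromosome (vertical axis) against the percent of the rest of that chromosome (horizontal axis), for the naive and the primed list, with the dashed line at equal shares. Filled circles are chromosomes 1, 2, 5, 9 and 16 and open triangles 13 others, and all points lie above the line except 1 primed flank of chromosome 20 at 93.2% against 95.9%.

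Genes of the flanks were examined next. A gene counts as touched when any part of its body overlaps a region. The flanks hold 193 coding genes, from 5 in the chromosome 9 left flank to 42 in the chromosome 1 right flank. Of these, 160 (82.9%) were touched by naive and 186 (96.4%) by primed NADs, against 74.9% and 77.4% of 5659 coding genes in the rest of the 5 chromosomes, and against 76.6% and 81.7% over all chromosomes. The median flank gene had 55.1% of its body in naive and 100% in primed NADs, against 30.6% and 54.8% in the rest. In primed NADs 159 genes (82.4%) lay with their whole body, against 31.2% of genes in the rest, and in naive NADs 43 (22.3%), against 10.0%. For 77 genes (39.9%) the primed share of the body was at least 50 points above the naive share, against 25.3% in the rest of the 5 chromosomes and 27.5% over all chromosomes. The reverse held for 3 (1.55%), against 6.49% and 5.74%. Promoters followed the same order: 52.9% of 157 were in naive and 93.0% in primed NADs, against 37.6% and 57.5% of 4776 in the rest.

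Beside the chromosome 1 block lie families that expanded in the human lineage. All 29 annotated members in the flanks, pseudogenes and noncoding genes included, were touched by primed and 24 by naive NADs, and 15 had at least 50 points more of their body in primed NADs. Of the 21 coding members, 18 (85.7%) were touched by naive NADs, near the 82.9% of all flank coding genes, and 11 had that difference, where 39.9% of all flank coding genes did. SRGAP2C, a truncated copy of a regulator of neuronal migration and spine growth, had 35.1% of its 208 kb in naive and 100% in primed NADs, while its sister copy SRGAP2B, across the block, had 80.8% and 100%. FAM72B, from the family that sits beside SRGAP2 genes, was at 14.1% and 100%, and FAM72D at 85.3% and 100%. The NOTCH2-derived gene NOTCH2NLA, active in cortical progenitors, was at 87.5% and 100%, and NOTCH2NLR at 65.0% and 100%. NBPF12 was at 2.90% and 100%. All of these families have near-identical copies, so the values of single members are uncertain.

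To the right of the same block lie 14 genes listed as single-copy, whose read placement was not examined. All 14 had 100% of the body in primed NADs and 11 (78.6%) were touched by naive NADs, 6 with a difference of at least 50 points. The shares over all flank coding genes were 82.9% touched by naive NADs and 39.9% with such a difference. The splicing and decay factor RBM8A, the thioredoxin inhibitor TXNIP and the iron regulator HJV had 0 in naive NADs. The collagen-binding integrin ITGA10 and the RNA polymerase III subunit POLR3GL had 100%. Neighbours thus differed: POLR3GL lies 2.785 Mb, TXNIP 2.812 Mb and HJV 2.837 Mb from the block.

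Immunoglobulin kappa genes fill the chromosome 2 left flank next to the block. Of 89 members found in the flanks, most of them variable segments and some of them in other flanks, 80 (89.9%) were touched by naive and 88 (98.9%) by primed NADs. The background over all genes of any biotype on all chromosomes was 61.6% and 67.7%. In the flanks, primed NADs touched 96.4% of coding genes, 98.5% of long noncoding RNAs and 97.1% of pseudogenes. The primed share of the kappa genes was thus near that of other flank genes. Naive NADs touched 82.9%, 78.4% and 72.8% of these 3 kinds. The constant gene IGKC was at 100% in both lists. The segments IGKV1-8, IGKV7-3 and IGKV2-28 had 0 in naive and 100% in primed NADs, and IGKV2-40 was in neither. This locus is an inverted duplication with paired proximal and distal segments, so the copies cannot be fully told apart.

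Around the chromosome 9 block, 28 members of duplicated families, pseudogenes and noncoding genes included, were all touched by primed and 22 by naive NADs, among them 2 that lie in the chromosome 2 right flank. The naive share of 78.6% over all 28 compares with 82.9% of coding genes, 78.4% of long noncoding RNAs and 72.8% of pseudogenes in the flanks. Of the 9 coding members, only 5 (55.6%) were touched by naive NADs, below the 82.9% of all flank coding genes. At least 50 points more of the body in primed NADs was found for 4 of the 9, against 39.9% of all flank coding genes. SPATA31A6, of a family linked to sperm development, and the forkhead genes FOXD4L6 and FOXD4L5 had 0 in naive and 100% in primed NADs. SPATA31A5 was at 100% in both. CNTNAP3B, a contactin-associated cell adhesion gene, was at 83.3% and 100%.

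Of 9 developmental regulators, all were touched by primed and 8 (88.9%) by naive NADs, near the 96.4% and 82.9% of all flank coding genes. Only 1 of the 9 had at least 50 points more of its body in primed NADs, where 39.9% of all flank coding genes did. FGF10, of lung and limb outgrowth, ISL1, the cerebellar synapse organiser CBLN1 and SALL1, of kidney development, had 100% of the body in both lists. GHR, the growth hormone receptor, was at 67.6% and 93.3%, and ZNF423 at 59.8% and 97.3%. FST, the activin antagonist follistatin, 3.89 Mb right of the chromosome 5 block, was the exception, with 0 in naive and 100% in primed NADs.

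In a list of 11 energy, mitochondrial and related genes, all were touched by primed and 10 (90.9%) by naive NADs, and 4 were higher in primed NADs by at least 50 points. These counts lie near the shares of all flank coding genes, 96.4%, 82.9% and 39.9%. One of the 4 is no energy gene: POLR1A, the largest subunit of the nucleolar RNA polymerase I, had 0 of its 85.7 kb in naive and 100% in primed NADs. GPT2, a mitochondrial transaminase, was at 14.8% and 100%, and the mitochondrial ribosome factor PTCD3 at 33.8% and 100%. MRPS30 and MOCS2, of molybdenum cofactor synthesis, were at 100% in both. Of 11 immune and signalling genes, all were touched by primed and 10 (90.9%) by naive NADs, also near the flank shares, and 3 were higher in primed NADs by at least 50 points. The liver fatty acid carrier FABP1 was at 0 and 100%, the T cell co-receptor CD8A at 42.0% and 100%, and the bacterial sensor NOD2 at 33.1% and 83.8%, while its neighbour CYLD, a deubiquitinase, was at 100% in both. All 6 zinc finger genes, 5 of them coding, were touched by both lists. Of all flank coding genes, 82.9% were touched by naive and 96.4% by primed NADs. By at least 50 points, 3 of the 5 were higher in primed NADs, against 39.9% of all flank coding genes. These were ZNF514, ZNF2 and ZNF131, at 27.2%, 46.0% and 11.4% in naive and at 100%, 100% and 83.6% in primed NADs, while ZNF892 was at 93.6% and 100% and the pseudogene ZNF971P at 100% in both.

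The exceptions to primed coverage were few and were named after their values were seen. Coding genes in naive NADs alone were GNLY, which encodes the cytotoxic granule protein granulysin (100% of 4.50 kb), its neighbour SFTPB, which encodes surfactant protein B (76.4%), both near the outer edge of the chromosome 2 left flank, and LOC107984126 right of the chromosome 9 block (100%). Those in neither list were TP53TG3B, TP53TG3E, TP53TG3F and LOC105379473, which lie together 4.83 to 4.98 Mb left of the chromosome 16 block. The TP53TG3 genes are near-identical copies, so their absence cannot be told from a lack of placed reads.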

How the data were processed

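DNA from nucleoli and from whole cells of naive and primed H9 cells was sequenced. The authors deposited 2 lists of regions, with no other values (only coordinates). Per the submitters' processing notes, BWA, SAMtools 1.10 and SICER were used on hg38. The sources used here do not give their roles, the calling settings, the read depth or the way replicates were joined. Region limits lie on a 10 kb grid apart from 8 naive and 12 primed ends.

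Covered sequence was counted in 10 kb bins on chromosomes 1 to 22 and X with Python 3.11.15, numpy 2.4.6 and pandas 2.3.3. Empty stretches of at least 500 kb with no region and no gene were left out, which on these 5 chromosomes are the blocks alone. Genes came from RefSeq on GRCh38.p14 (59098 placed genes, 19974 coding). The bin and gene counts were tested on simulated data. Promoters were used for 15812 coding genes.

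The flanks and gene lists were chosen with earlier results of these data known. Named genes are the innermost coding gene of each flank, up to 4 coding genes of its longest region, and members of 8 gene lists, with values for up to 3 members per list and direction that differ by at least 50 points, plus neighbours and sister copies chosen after their values were seen. No p-value was computed, since each state has 1 list. Binomial 95% intervals in the closing section only set a scale for change, since neighbouring bins are not independent. Some genes that this rule names are not reported here.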

Additional observations from a re-analysis of the deposited data

How the results depend on the processing

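No paired analysis was possible because each state has 1 list made from all its replicates, so replicates could neither be paired nor left out. Values below are medians over flanks in percentage points, given for the naive difference from the rest (20.1), the primed difference from the rest (57.5) and naive minus primed in the flanks (-35.8).
Flanks of 10 Mb gave 15.3, 59.3 and -37.7, and flanks of 2 Mb gave 56.6 in primed NADs. Filling gaps of up to 50 kb gave 18.6, 46.7 and -4.20. Leaving out regions of 1 bin gave 24.7, 62.7 and -44.1. Regions wholly inside a flank gave 55.9 in primed NADs. The primed difference was 58.6 with the outer 5 Mb of chromosomes left out of the rest and 60.2 without the stretch inside the innermost coding gene. Taking the rest from 20 Mb outward, chosen after seeing the data, gave 65.3. Blocks of at least 5 Mb alone gave 16.1, 46.2 and -34.3. Without chromosome 2 the values were 17.8, 56.2 and -37.9. Without chromosome 16 the naive and primed differences were 22.6 and 61.5. Without chromosome 1 the primed difference was 60.1 and naive minus primed -33.1, without chromosome 5 they were 56.2 and -33.1, and without chromosome 9 they were 61.5 and -37.9. No alternative run changed the sign of these 3 medians. Among values of single flanks 192 stayed within their counting interval, 105 moved and 3 reversed, all in the chromosome 16 left flank: the naive difference was -7.52 with flanks of 2 Mb, and the primed difference was 9.23 with flanks of 10 Mb and 1.45 with the rest from 20 Mb outward. The 192 include values that could not change. Keeping empty stretches gave 30 of them, since these stretches are the blocks, which are left out in any case. Runs that altered only the rest could not change naive minus primed in the flanks. The depth of the libraries and the calling settings are unknown, so a bin outside both lists may be unplaced sequence.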
